A study of Homo sapiens with 4 samples.

Results

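The axon guidance genes of the ephrin, semaphorin, netrin and Slit families were compared in MDA-MB-468/R (R cells) against MDA-MB-468/WT (WT cells), each measured in 2 libraries. The set held every target whose symbol belongs to the Eph receptors (EPHA, EPHB), the ephrins (EFNA, EFNB), the semaphorins of classes 3 to 7 (SEMA), the plexins (PLXN), the neuropilins (NRP), the netrins (NTN) and their UNC5 receptors, or the Slit ligands and their Robo receptors. It contained 68 of the 20799 targets, 33 of them receptors and 35 ligands. Members were set by symbol alone, but the families were chosen with earlier results of these data known. MDA-MB-468 is a triple-negative breast cancer (TNBC) cell line of basal type. MDA-MB-468/R is its subline treated for 6 months, and MDA-MB-468/WT carries the treatment label none. Per the paper, cycles of adriamycin (doxorubicin) with cytoxan (cyclophosphamide) and then taxotere (docetaxel) were given at rising doses, followed by a month of recovery. A protocol label names the same drugs for the WT libraries, and the treatment and genotype labels were followed here. The subline is a single selected population, so its values describe that subline. Total RNA was amplified with the Ion AmpliSeq Transcriptome kit, which reads 1 short amplicon per gene, and each deposited value is the log2 of 1 plus the RPM, the reads per 1000000 reads. Neither the labels nor the paper say whether the 2 libraries of a group came from separate cultures, so the spread behind each p-value is that of the libraries at hand and may be technical.

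Guidance molecules were named for steering growing axons, and the same ligands and receptors act on adhesion, repulsion and migration in epithelia, blood vessels and tumors. Ephrins sit on the surface of a neighboring cell and activate Eph receptor tyrosine kinases on contact, with A-type ephrins held by a lipid anchor and B-type ephrins spanning the membrane. Semaphorins signal through plexins, and most secreted class 3 semaphorins first bind a neuropilin as co-receptor. Netrins bind DCC, neogenin and UNC5 receptors, and Slits bind Robo receptors.

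The recovered depth was 6838000 to 7982000 reads per library, so that 3 reads corresponded to 0.376 to 0.439 RPM. The summed level of the 5 epithelial markers ranged over 4474 to 5073 RPM in R cells and 5515 to 5540 RPM in WT cells. None of these 5 passed (log2 fold changes -0.41 to -0.095, adjusted p = 0.121 to 0.686 from limma). The 5 markers of the basal-type TNBC line summed to 5800 to 6645 RPM in R cells and 7551 to 7566 RPM in WT cells, most of it EGFR, which did not pass (log2 fold change -0.135). The basal keratins KRT17 and KRT5 were lower in R cells (log2 fold changes -1.22 and -0.765, adjusted p = 4.39e-04 and 0.00210 from limma), KRT16 and FOXC1 did not pass, and the part of this shift in the guidance gene values was not tested. ESR1, PGR and ERBB2 together summed to 12.1 to 13.8 RPM in R cells and 8.27 to 12.9 RPM in WT cells. Of the markers of other cells, PTPRC, CD3E, PDGFRB, DCN, VWF, SNAP25, ELAVL3, ELAVL4 and STMN2 were at 0 in all 4 libraries, whereas CD14 had 71.5 and 70.5 RPM in R cells and 83.4 and 84.6 RPM in WT cells. The R libraries differed more from each other than the WT libraries did. Between replicates, the log2 differences had an SD, over the 44 guidance genes that could be tested, of 0.374 in R cells and 0.224 in WT cells, and over all tested genes of 0.355 in R cells and 0.210 in WT cells.

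Of the 68 guidance genes, 44 reached 10 reads in 2 or more libraries and were tested with limma together with all other genes past this filter, 12118 in total. At an adjusted p of at most 0.05, 11 were lower in R cells (25%, where 10.6% of all tested genes were lower), 5 were higher (11.4%, where 5.36% of all tested genes were higher) and 28 did not pass. The median log2 fold change was -0.0475, and that of all tested genes was -0.03. In 17 genes both R libraries lay below both WT libraries (32.2% of all tested genes did), in 13 both lay above (26.1%), and in 14 the groups overlapped. DEGs, which also needed a fold change of at least 2.5, were NRP2 and UNC5A. Both were lower in R cells, and 2.45% of all tested genes were lower DEGs. None of the 44 was a higher DEG in limma, a class that held 0.809% of all tested genes, and EPHA6 was a higher DEG with limma-voom on the recovered reads, with 0.25 RPM added and without R replicate 2. SEMA3B was a further lower DEG with limma-voom (log2 fold change -1.726) and with 0.25 RPM added (-1.615). Without R replicate 1 the log2 fold change was -1.62 for SEMA3B and -1.4 for EPHA2, both beyond the 2.5-fold threshold. An unadjusted p of at most 0.05 was found for 24 of the 44 (54.5%), where 31.3% of all tested genes had one. The 16 calls needed both WT libraries. Without WT replicate 1 none of the 16 passed (adjusted p = 0.0742 to 0.411), and without WT replicate 2 none passed (0.0676 to 0.468), with the direction kept in each gene. Over all genes, 63 and 57 passed in those fits, against 1939 with 4 libraries. Since the cells were measured in bulk, fewer cells with a transcript and less of it per cell cannot be told apart.

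**Figure D1:**
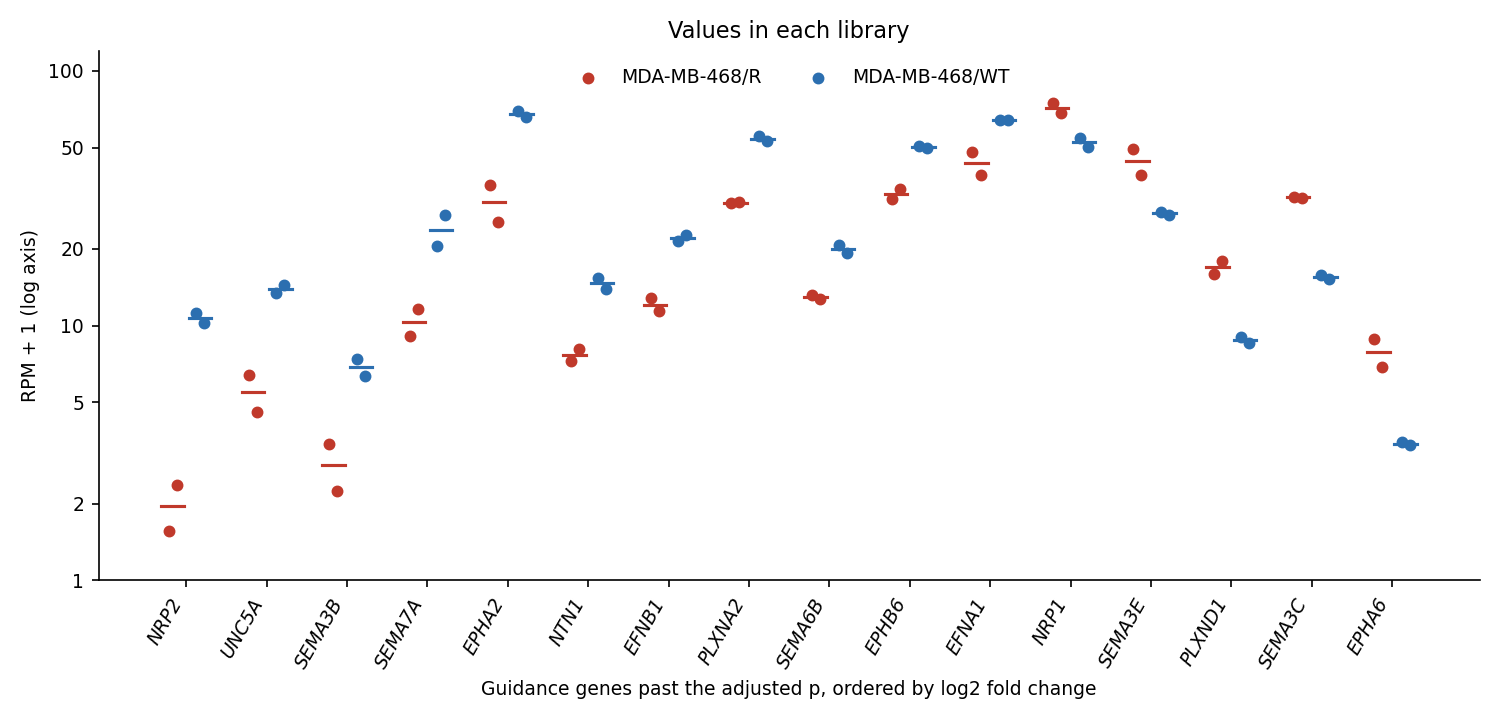
RPM plus 1 on a log y axis for the 16 guidance genes past the adjusted p, ordered along the x axis by log2 fold change. Points are single libraries of R cells (red, left) and WT cells (blue, right) and lines mark the mean RPM of a group plus 1. The red points lie below the blue ones in the first 11 genes, from NRP2 to EFNA1, and above them in the last 5, from NRP1 to EPHA6.

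The neuropilins moved in opposite directions. NRP2, a co-receptor for class 3 semaphorins and for VEGF-C, had 0.569 and 1.36 RPM in R cells, against 10.2 and 9.27 RPM in WT cells. These values came from 4 and 10 reads in the R libraries and 70 and 74 reads in the WT libraries, and the groups were far apart. In RPM the mean was 10.1-fold lower in R cells. On the log2 scale with 1 RPM added, which compresses differences near 0, NRP2 fell by 2.48 (SE 0.256, adjusted p = 0.00105 from limma), and no other of the 44 genes fell by as much. NRP1, the paralog that binds SEMA3A and VEGF-A, had 73.5 and 67.6 RPM in R cells, against 53.6 and 49.2 RPM in WT cells. Both R libraries were above both WT libraries, with a log2 fold change of 0.45 (SE 0.120, adjusted p = 0.0438 from limma). The call of NRP1 was lost without R replicate 1 (adjusted p = 0.0749), without R replicate 2 (0.0549), with no filter on low values (0.0506), and without WT replicate 1 or WT replicate 2 (0.362 and 0.468). NRP2 had an adjusted p of 0.0742 without WT replicate 1 and 0.0676 without WT replicate 2. The sequence upstream of NRP2, the guidance gene with the largest change in these libraries, is shown as RefSeq places it (GRCh38.p14, chr2:205682251-205682500, plus strand, 250 bases up to the transcript start), with GC boxes in capitals.
NRP2: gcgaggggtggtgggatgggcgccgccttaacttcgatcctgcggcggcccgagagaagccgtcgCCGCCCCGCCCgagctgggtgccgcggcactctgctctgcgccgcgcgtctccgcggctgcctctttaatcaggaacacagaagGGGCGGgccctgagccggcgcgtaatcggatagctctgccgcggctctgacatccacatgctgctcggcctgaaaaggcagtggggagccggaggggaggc
GC boxes, the letters GGGCGG on either strand, occurred 3 times here, with an overlap between neighboring matches, and at least once in 42.6% of the 35116 RefSeq promoter windows of this length.

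Among the class 3 semaphorins, 2 of 5 tested genes rose, 1 fell and 2 did not pass, where 5.36% of all tested genes were higher and 10.6% lower. SEMA3C, a ligand of neuropilins with plexin D1 and A-type plexins, had 31.0 and 30.8 RPM in R cells and 14.8 and 14.2 RPM in WT cells. The R libraries were nearly identical and stood 2.13-fold higher, with a log2 fold change of 1.04 (SE 0.142, adjusted p = 0.00382 from limma). SEMA3E, which can bind plexin D1 without a neuropilin, had 48.5 and 38.1 RPM in R cells and 26.9 and 26.3 RPM in WT cells. Its lowest R library was above both WT libraries (log2 fold change 0.675, SE 0.155, adjusted p = 0.0258). SEMA3B, described as a growth suppressor in lung cancer, had 2.43 and 1.23 RPM in R cells and 6.41 and 5.36 RPM in WT cells. Both R libraries were lower (log2 fold change -1.31, SE 0.266, adjusted p = 0.0166), with 17 and 9 reads in R cells and 44 and 43 reads in WT cells. SEMA3F, which RefSeq places close to SEMA3B on chromosome 3, had 74.6 and 65.7 RPM in R cells and 62.6 and 70.5 RPM in WT cells. Its groups overlapped, and the 95% interval of its log2 fold change ran from -0.22 to 0.37. SEMA3A, the prototype axon repellent, had a log2 fold change of -0.665 with an interval of -1.33 to 0.00353 and did not pass (adjusted p = 0.162). SEMA3B lost its call without R replicate 2 (adjusted p = 0.0637). Without WT replicate 1 or WT replicate 2 the adjusted p was 0.154 and 0.160 for SEMA3C, 0.326 and 0.341 for SEMA3E, and 0.254 and 0.193 for SEMA3B.

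Of the plexins, the receptors of the semaphorins, 7 of 9 were tested, with 1 higher and 1 lower (5.36% and 10.6% of all tested genes). PLXND1, the receptor of SEMA3E, had 15 and 17 RPM in R cells and 8.06 and 7.51 RPM in WT cells. Both R libraries were higher, 2.05-fold in mean RPM, with a log2 fold change of 0.95 (SE 0.172, adjusted p = 0.0110 from limma). PLXNA2, an A-type plexin for class 3 and class 6 semaphorins, had 29.3 and 29.5 RPM in R cells and 54.3 and 52.1 RPM in WT cells. Replicates lay close together in both groups, and PLXNA2 was 1.81-fold lower in R cells (log2 fold change -0.835, SE 0.123, adjusted p = 0.00502). The remaining 5 plexins did not pass. PLXNB1, a receptor of SEMA4D, had 28.7 and 23.9 RPM in R cells and 15.3 and 19.97 RPM in WT cells, with an interval of 0.13 to 0.98 on the log2 scale and an adjusted p of 0.0818. PLXNB2, the plexin amplicon with the most reads, had 187.7 and 128.8 RPM in R cells and 159.9 and 158.8 RPM in WT cells, so the R libraries stood on either side of the WT libraries. Its log2 fold change was -0.305 without R replicate 1 and 0.235 without R replicate 2. PLXNA1 had a log2 fold change of 0 and an interval of -0.33 to 0.33. Without WT replicate 1 the adjusted p was 0.210 for PLXND1 and 0.210 for PLXNA2, and without WT replicate 2 it was 0.240 for PLXND1 and 0.180 for PLXNA2.

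The membrane-bound semaphorins of classes 4 to 7 gave 2 lower genes, 0 higher genes and 7 that did not pass among 9 tested, with 0 higher by limma-voom as well. Over all tested genes, 10.6% were lower and 5.36% higher. An unadjusted p of at most 0.05 was found for 3 of the 9 (33.3%), close to the 31.3% of all tested genes. SEMA7A, which is held by a lipid anchor and signals through integrins and plexin C1, had 8.13 and 10.6 RPM in R cells and 19.5 and 26.1 RPM in WT cells. Both R libraries were below both WT libraries, and the replicates of each group were spread (log2 fold change -1.195, SE 0.207, adjusted p = 0.00951 from limma). PLXNC1, which encodes plexin C1, had 0 reads in all 4 libraries. SEMA6B, a ligand of A-type plexins, had 12.2 and 11.7 RPM in R cells and 19.8 and 18.3 RPM in WT cells, with a log2 fold change of -0.63 (SE 0.157, adjusted p = 0.0345). SEMA4C, a ligand of plexin B2 and the amplicon of these classes with the most reads, had 29.9 and 31.2 RPM in R cells and 35.0 and 36.5 RPM in WT cells. Its groups did not overlap, but it did not pass (adjusted p = 0.291). The 7 genes that did not pass had log2 fold changes between -0.36 and 0.30. SEMA7A lost its call without R replicate 1 (adjusted p = 0.0775), without R replicate 2 (0.0555) and without WT replicate 1 or WT replicate 2 (0.143 and 0.242). SEMA6B lost it without R replicate 1 (0.0556), without R replicate 2 (0.0617), without WT replicate 1 or WT replicate 2 (0.411 and 0.326) and with no filter on low values (0.0545).

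**Figure D2:**
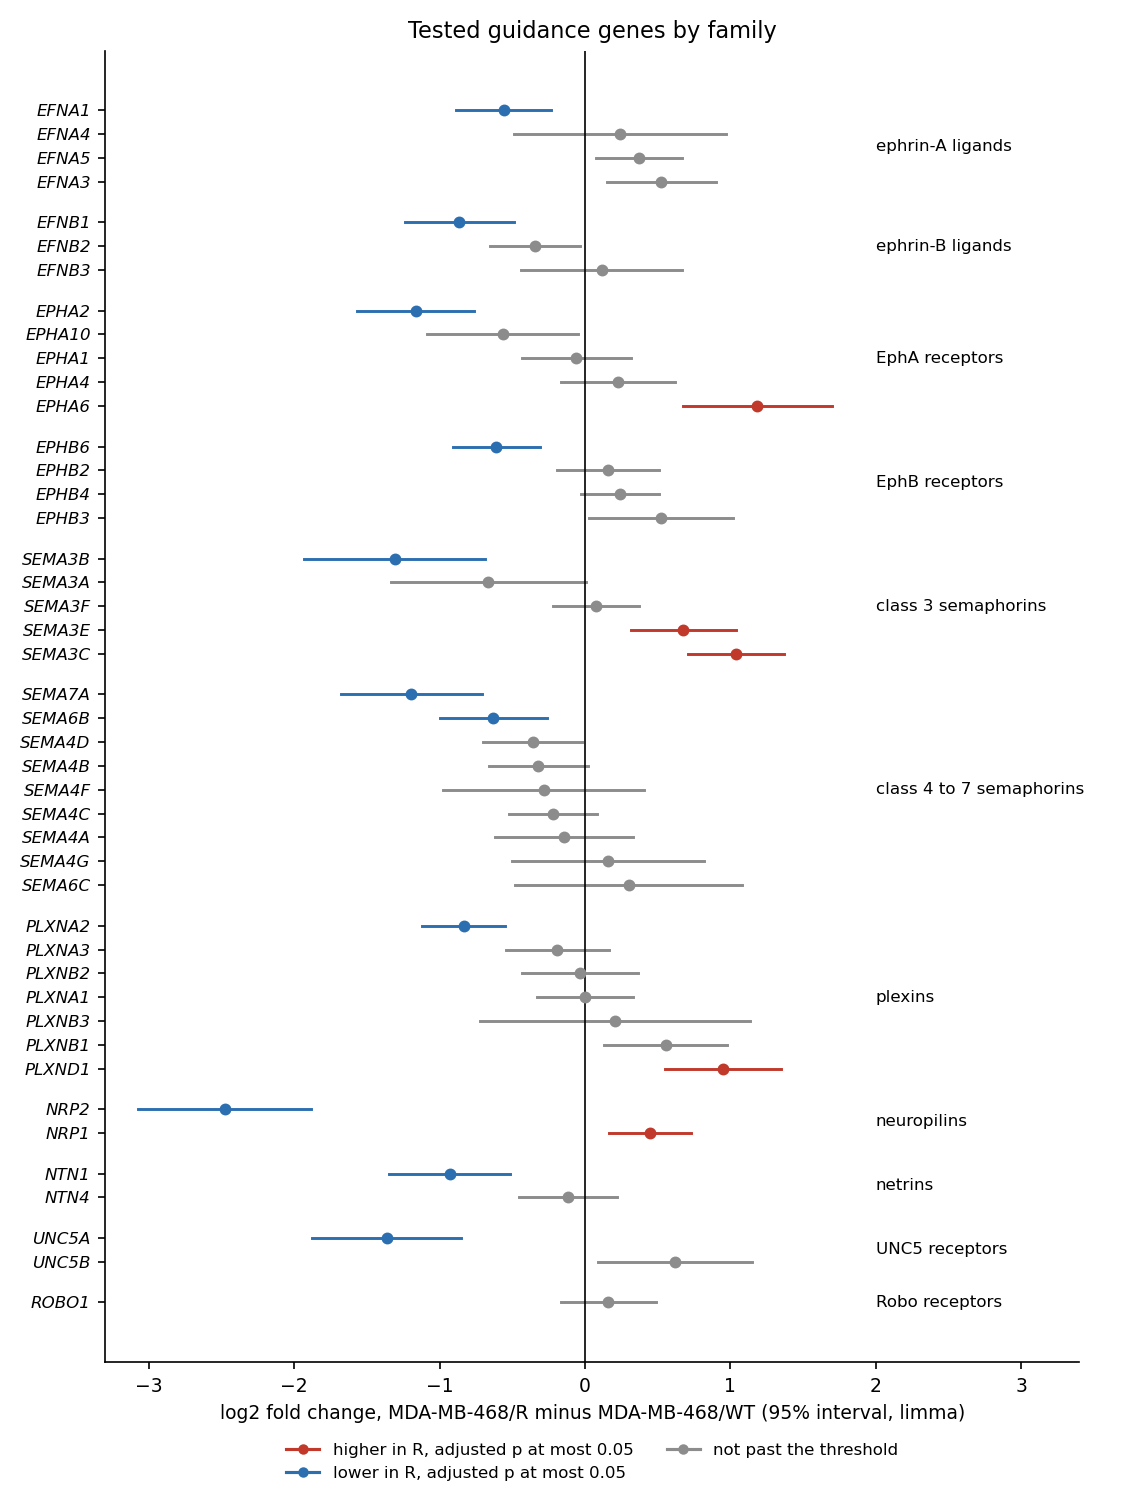
Log2 fold change, R cells minus WT cells, on the x axis for the 44 tested guidance genes, which are listed on the y axis by family. Points are limma estimates and bars their 95% intervals, in red for the 5 higher genes, blue for the 11 lower genes and grey for the 28 that did not pass. NRP2 lies at -2.48 and its paralog NRP1 at 0.45.

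Of 9 EphA receptors, 5 were tested, and EPHA2 and EPHA6 moved in opposite directions. EPHA2, an Eph receptor widely expressed in epithelial tumors, had 34.5 and 24.6 RPM in R cells and 68.6 and 64.8 RPM in WT cells. The highest R library was well below the lowest WT library, and EPHA2 was 2.25-fold lower in mean RPM, with a log2 fold change of -1.165 (SE 0.172, adjusted p = 0.00504 from limma). Its main ligand EFNA1 was also lower, at 47.2 and 38.1 RPM in R cells and 63.0 RPM in each of the WT libraries. Both R libraries of EFNA1 were below the WT libraries (log2 fold change -0.56, SE 0.139, adjusted p = 0.0345). EPHA6, a receptor best known from the nervous system, had 7.88 and 5.87 RPM in R cells and 2.48 and 2.39 RPM in WT cells. It was 2.82-fold higher in RPM, with 55 and 43 reads in R cells and 17 and 19 reads in WT cells, and its log2 fold change of 1.185 (SE 0.219, adjusted p = 0.0120) was above that of the other 43 tested guidance genes. EPHA10, a receptor without kinase activity, was not called lower (log2 fold change -0.565, interval -1.08 to -0.0463, adjusted p = 0.130). RefSeq places EFNA4, EFNA3 and EFNA1 side by side on chromosome 1. Unlike EFNA1, EFNA3 had higher values in both R libraries, at 18.4 and 16.8 RPM in R cells and 11.6 and 12.3 RPM in WT cells, although it did not pass (log2 fold change 0.525, adjusted p = 0.0667). EFNA4 had 12.0 and 5.59 RPM in R cells and 6.89 and 6.78 RPM in WT cells, so that its R libraries stood on either side of the WT libraries. EFNA5 did not pass either (log2 fold change 0.37, interval 0.0728 to 0.667, adjusted p = 0.0935). EPHA6 lost its call without R replicate 1 (adjusted p = 0.0534). Without WT replicate 1 or WT replicate 2 the adjusted p was 0.192 and 0.167 for EPHA2, 0.389 and 0.381 for EFNA1, and 0.199 and 0.201 for EPHA6.

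The upstream sequences of the receptor EPHA2 and its ligand EFNA1, which were lower together, are shown as RefSeq places them (GRCh38.p14, 250 bases up to the transcript start). EPHA2 is at chr1:16156070-16156319 on the minus strand and EFNA1 at chr1:155127626-155127875 on the plus strand, and capitals again mark GC boxes.
EPHA2: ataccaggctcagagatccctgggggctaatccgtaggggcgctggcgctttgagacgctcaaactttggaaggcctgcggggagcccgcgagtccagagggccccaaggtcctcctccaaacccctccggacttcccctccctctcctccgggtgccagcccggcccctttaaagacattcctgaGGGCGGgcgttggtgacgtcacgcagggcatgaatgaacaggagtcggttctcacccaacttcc
EFNA1: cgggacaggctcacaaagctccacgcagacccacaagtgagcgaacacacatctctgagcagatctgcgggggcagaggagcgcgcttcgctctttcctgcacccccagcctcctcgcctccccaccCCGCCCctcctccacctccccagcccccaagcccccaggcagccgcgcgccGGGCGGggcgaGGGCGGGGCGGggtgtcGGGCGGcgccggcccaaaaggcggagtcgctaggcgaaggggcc
EPHA2 had 1 GC box and EFNA1 had 5, some of which share letters. EPHA2 also held 1 match to the cAMP response element TGACGTCA, whose letters were found in 1.65% of the promoter windows, and EFNA1 and NRP2 held none. No match to the AP-1 letters TGANTCA (6.57% of windows, either strand) or to the TATA letters TATAAA (10.7%) lay in these 3 windows. The motifs were picked after the sequences had been seen, and a match is a description of the letters only. Of the 16 called genes, 13 had a promoter in the RefSeq table.

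The EphB receptors and ephrin-B ligands gave 1 lower gene each, of 4 and 3 tested, where 10.6% of all tested genes were lower. EPHB6, a receptor that lacks kinase activity, had 30.3 and 33.5 RPM in R cells and 49.6 and 48.9 RPM in WT cells. It was lower in both R libraries (log2 fold change -0.61, SE 0.127, adjusted p = 0.0184 from limma). EFNB1, a transmembrane ephrin encoded on chromosome X, had 11.8 and 10.4 RPM in R cells and 20.4 and 21.6 RPM in WT cells. This was 1.89-fold lower in RPM (log2 fold change -0.865, SE 0.161, adjusted p = 0.0122). Of the 380 tested genes on chromosome X, 36.6% were called lower and 2.11% higher, with a median log2 fold change of -0.45, and the part of this shift in the value of EFNB1 was not tested. PLXNA3 and PLXNB3, the other X-linked guidance genes, did not pass, and their log2 fold changes were -0.19 (interval -0.55 to 0.17) and 0.205 (interval -0.72 to 1.13). EPHB4, a receptor of EFNB2 in vessels and the EphB amplicon with the most reads, had 92.1 and 87.0 RPM in R cells and 79.4 and 72.0 RPM in WT cells. The groups of EPHB4 were separate and the interval of its log2 fold change, -0.0267 to 0.507, included 0. EFNB2 had 24.99 and 24.6 RPM in R cells and 31.2 and 32.4 RPM in WT cells, below the WT libraries but not past the threshold (adjusted p = 0.125). EPHB3 had a log2 fold change of 0.525 and did not pass (adjusted p = 0.139). Without WT replicate 1 or WT replicate 2 the adjusted p was 0.327 and 0.311 for EPHB6, and 0.235 and 0.270 for EFNB1.

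Netrin-1 and a netrin receptor were lower in R cells. NTN1, the secreted ligand netrin-1, had 6.26 and 7.11 RPM in R cells and 14.3 and 12.9 RPM in WT cells. It was 2.04-fold lower in mean RPM, with a log2 fold change of -0.93 (SE 0.178, adjusted p = 0.0138 from limma). UNC5A, a dependence receptor that can trigger apoptosis in the absence of netrin, had 5.41 and 3.56 RPM in R cells and 12.5 and 13.4 RPM in WT cells. It was 2.88-fold lower in RPM and both R libraries were far below the WT libraries, with a log2 fold change of -1.365 (SE 0.220, adjusted p = 0.00722). Its relative UNC5B, a netrin receptor of vessels, had higher values in R cells, at 8.45 and 11.3 RPM, against 7 and 5.15 RPM in WT cells, but did not pass (log2 fold change 0.62, interval 0.0926 to 1.15, adjusted p = 0.108). NTN4, a basement membrane netrin with the most reads of the 68 amplicons, had 185.1 and 248.0 RPM in R cells and 229.7 and 234.6 RPM in WT cells. Its R libraries lay on either side of the WT libraries, with a log2 fold change of -0.325 without R replicate 2 and 0.095 without R replicate 1. NTN1 lost its call without R replicate 1 (adjusted p = 0.0512), and without WT replicate 1 or WT replicate 2 the adjusted p was 0.264 and 0.212 for NTN1 and 0.177 and 0.187 for UNC5A. As a DEG, UNC5A was lost with 4 RPM added in place of 1, where its log2 fold change was -1.005, and without R replicate 2, where it was -1.12.

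Of the Slit and Robo genes, ROBO1 alone passed the filter on low values. ROBO1, a receptor of Slits, had 29.7 and 33.5 RPM in R cells and 27.2 and 29.1 RPM in WT cells, and the interval of its log2 fold change was -0.17 to 0.49. SLIT2 and SLIT3 had 0 reads in all 4 libraries, and SLIT1 had 1 read, in an R library. Of the 24 guidance genes below the filter, 13 had 0 reads in all libraries, which allows up to 0.376 to 0.439 RPM per library. These were EPHA3, EPHA7, EPHA8, PLXNC1, ROBO2, ROBO3, SEMA3D, SEMA5A, SEMA6A, SEMA6D, SLIT2, SLIT3 and UNC5D. Such floors and the counting intervals leave out PCR error, because no molecular identifiers were used and copies of 1 molecule count as separate reads. ROBO4, known from endothelium, had 0 reads in both R libraries and 11 and 6 reads in WT cells, and was at least 2.81-fold lower against a floor of 3 reads per library. The 3 endothelial markers summed to 0 to 0.133 RPM in R cells and 2.78 to 2.88 RPM in WT cells. Among them CDH5 had 0 and 0.133 RPM in R cells and 2.63 and 2.76 RPM in WT cells and VWF was at 0 in all libraries, and their part in the value of ROBO4 was not tested. SEMA3G had 7 and 13 reads in R cells and 2 and 3 reads in WT cells, a ratio of 4.14 with a 95% counting interval of 1.51 to 14.1. SEMA5B had 11 and 7 reads in R cells and 3 and 2 reads in WT cells, a ratio of 3.72 (1.33 to 12.8). With no filter on low values ROBO4 and SEMA3G passed limma (adjusted p = 0.0203 and 0.0472) and SEMA5B did not (0.0572). EFNA2 had 6 and 0 reads in R cells and 8 and 0 reads in WT cells, so that its reads came from replicate 1 of each group. The other 7 genes had at most 5 reads in any library.

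**Figure D3:**
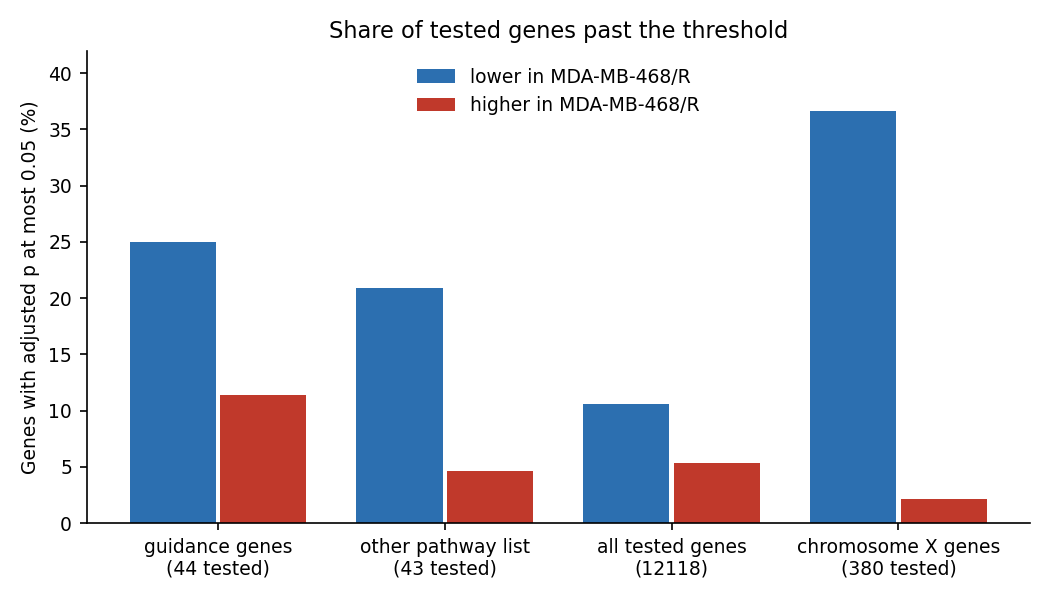
Percentage of tested genes with an adjusted p of at most 0.05 (y axis) that were lower (blue) or higher (red) in R cells than in WT cells, for the guidance genes, the list of other guidance pathway genes, all tested genes and chromosome X genes. The guidance genes had 25% lower and 11.4% higher, beside 10.6% and 5.36% of all tested genes. The list of other guidance pathway genes was written with earlier results of these data known.

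Another list held 66 receptors, co-receptors, ligands and effectors of guidance signaling, none of them a member of the set above. NTNG1 and NTNG2 were placed in this list and not with the netrins above. The list had 43 tested genes, of which 9 were lower (20.9%, beside 10.6% of all tested genes), 2 were higher (4.65%, beside 5.36%) and 32 did not pass. Its median log2 fold change was -0.165, where that of all tested genes was -0.03, and 5 were lower DEGs (11.6%, beside 2.45%). This list was written with earlier results of these data known, so its shares describe the chosen genes and are no test. NEO1, which encodes the netrin receptor neogenin, had 7.57 and 5.73 RPM in R cells and 17.4 and 20.6 RPM in WT cells, below the WT libraries together with NTN1 (log2 fold change -1.39, adjusted p = 0.00443 from limma). L1CAM, an adhesion molecule that associates with NRP1 and lies on chromosome X, had 2 and 1 reads in R cells and 137 and 191 reads in WT cells. RND1, a small GTPase that binds plexins, had 1.71 and 1.77 RPM in R cells and 7.34 and 7.17 RPM in WT cells (log2 fold change -1.59, adjusted p = 0.00257). PAK1, a kinase that acts on actin downstream of guidance receptors, had 26.5 and 23.8 RPM in R cells and 82.9 and 81.7 RPM in WT cells (log2 fold change -1.675, adjusted p = 2.88e-04). The higher genes were ARHGEF12, a guanine nucleotide exchange factor bound by B-type plexins, at a log2 fold change of 0.45 (limma, adjusted p = 0.0258), and SDC1, a cell surface proteoglycan, at 0.355 (adjusted p = 0.0441).

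**Figure D4:**
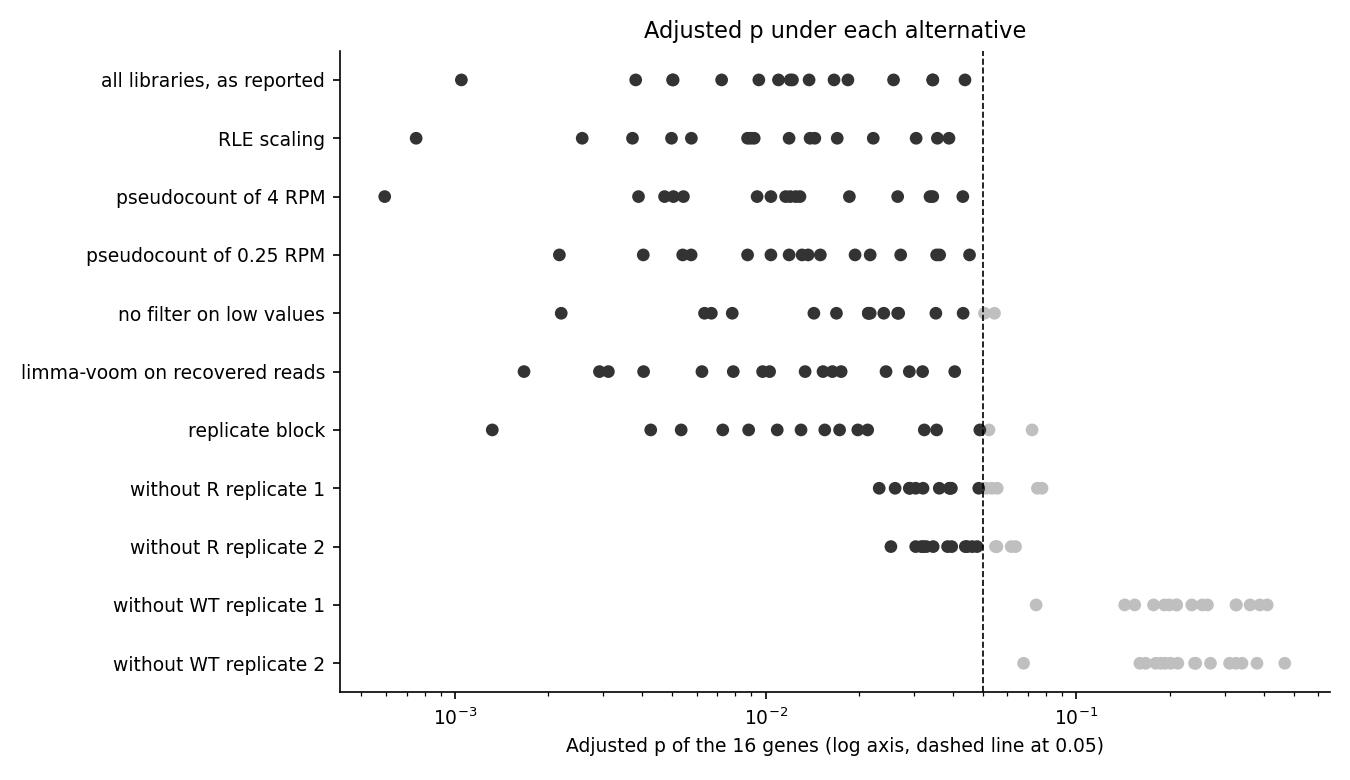
Adjusted p on a log x axis for the 16 called guidance genes (1 point each) under each alternative on the y axis, with the dashed line at 0.05 and grey points to its right. With all libraries the highest value is 0.0438, and without WT replicate 1 or WT replicate 2 the lowest values are 0.0742 and 0.0676.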

How the data were processed

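Per the labels and the paper's methods, the authors amplified total RNA of the 2 libraries of each group with the Ion AmpliSeq Transcriptome kit, which is strand-specific, and aligned reads to the targeted transcripts with the Torrent Mapping Alignment Program. Bowtie2, bedtools and edgeR also appear, with no version, in the processing notes of the authors, and the genome build was not given in the sources used here. DEGSeq, the test of the authors, needs raw counts and was not run. The deposited values are log2 of RPM plus 1, rounded to 2 decimals. RPM totals were 999854 to 1000057 per library, and the low values gave 6838000 to 7982000 reads per library, with 100% of values of up to 20 reads whole within 0.1.

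The log2 values entered a model with 1 group term and a mean trend in limma 3.58.1 (R version 4.3.3), without further scaling, on 12118 genes with at least 10 reads in at least 2 libraries, and p-values were adjusted over all of them (Benjamini-Hochberg). limma was checked on simulated data with larger changes than most called genes had, so its recovery of smaller changes was not checked. The DEG threshold was a 2.5-fold change on the log2(RPM + 1) scale together with an adjusted p up to 0.05. Values are given per library for each called gene and for the gene of each family with the most reads. Other genes named with values (SEMA3A, PLXNA1, PLXNB1, PLXNA3, PLXNB3, EPHA10, EPHB3, EFNA3, EFNA4, EFNA5, UNC5B) were picked after their values were seen. The families and lists were chosen with earlier results of these data known. Alternatives were RLE scaling, 0.25 or 4 RPM added, no filter, limma-voom on recovered reads, a replicate block, leaving out each library, and an unadjusted p. Sequences came from RefSeq (GRCh38.p14). Protein sequences were not used here. The 10 ERCC control targets, at 0 in all libraries, were left out.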

Additional observations from a re-analysis of the deposited data

How the results depend on the processing

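Of the 16 called guidance genes, 16 kept their call with RLE scaling, 0.25 RPM added, 4 RPM added and limma-voom, and 14 with no filter on low values, which added ROBO4 and SEMA3G. The replicate numbers are not stated to mark a shared culture, and the log2 differences between replicates 1 and 2 of the groups had a correlation of 0.0709 over the 44 genes. With the replicate block 10 genes were lower and 4 higher, and NRP1 (adjusted p = 0.0720) and SEMA6B (0.0523) lost their calls. Of all 12118 tested genes, 1114 were lower and 497 higher with the block, against 1290 and 649 without it. Leaving out 1 library gave 0 to 9 lower genes, 0 to 4 higher genes, 0 to 4 lower DEGs and 0 to 1 higher DEGs, and a median log2 fold change of -0.215 (without R replicate 1) to 0.065 (without R replicate 2). The 0 calls without WT replicate 1 or WT replicate 2 came from fits in which the R libraries alone gave the spread, and a lone library is assumed to vary like the other group. Lower DEGs numbered 1 with 4 RPM added and 3 with 0.25 RPM added and with limma-voom (SEMA3B added), and these last settings each called 1 higher DEG (EPHA6). With 1 library left out the log2 fold change ran from -0.325 to 0.095 for NTN4, -0.305 to 0.235 for PLXNB2, -0.015 to 0.165 for SEMA3F, -0.25 to 0.73 for EFNA4 and -0.425 to 0.835 for PLXNB3. Without R replicate 1 its sign turned, to 0.095 for NTN4, -0.015 for SEMA3F, -0.25 for EFNA4 and -0.425 for PLXNB3, without R replicate 2 to 0.235 for PLXNB2, and without WT replicate 1 to -0.01 for SEMA3F. Without R replicate 1 or R replicate 2, the WT libraries alone gave the spread, which leaves out the larger spread between the R libraries. The lower genes without R replicate 1 included PLXNB2, and those without R replicate 2 included NTN4, neither among the 16 called genes. The cause of the turned signs was not tested. Genes with a few reads, such as NRP2 in R cells, are limited by depth.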
